A study of Mus musculus with 24 samples.

Results

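The genes described here are the numbered Zfp genes of the mouse that were well expressed in the kidney inner medulla. A gene was taken when its symbol was exactly Zfp followed by digits and its mean over the 24 libraries was at least 5 CPM, the count of a gene scaled by the total count of its library. Of 374 such symbols in the table of 55416 gene identifiers, 270 met this minimum, and all 270 were among the 18005 genes tested. The members were thus chosen by their symbol and by their mean CPM in these libraries, so the levels are given as a description: Zfp112 (5.02 CPM), Zfp960 (5.04 CPM) and Zfp58 (5.08 CPM) lay just inside the limit, and Zfp850 (4.99 CPM), Zfp85 (4.94 CPM) and Zfp248 (4.9 CPM) just outside it.

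Poly(A)-selected RNA of the kidney inner medulla was sequenced from mice of the inbred strain C57BL/6 that were given their injection at an age of 9 to 10 weeks. The groups were males given cisplatin (6 libraries), males given saline (6), females given cisplatin (5) and females given saline (7). Each animal received 1 intraperitoneal dose, cisplatin at 15 mg/kg or saline alone, in a volume of 100 µl, and tissue was taken 72 h later. Cisplatin, a platinum compound used in cancer therapy, crosslinks DNA and is toxic to the kidney tubule. The labels do not say that each library is 1 mouse, so the p-values speak of the spread among libraries, and in bulk tissue fewer cells of a type and less RNA per cell cannot be told apart.

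Most Zfp proteins carry arrays of C2H2 zinc fingers, small folds that hold a zinc ion between cysteines and histidines and that usually read DNA. Many also carry a KRAB box, which recruits Trim28 and its heterochromatin partners to silence transposons and nearby genes, and these genes lie in clusters that grew by duplication. Others bind RNA, ubiquitin ligase partners or the cytoskeleton, and the messages of transcription factors are often short-lived. A C2H2 pattern was found in the translated reading frame of 263 of the 269 members that had one, with a median of 11 fingers and a maximum of 36, and the linker TGEKP between fingers in 198. A core pattern of the KRAB A box was found in 128 members and not in 141. The pattern misses diverged boxes, and Zfp445 and Zfp746, both known as KRAB proteins, lacked it. Copies in a cluster can share reads, and the treatment of shared reads in the counting is not given in any source used here, so values of close copies are uncertain.

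Total counts per library ran from 18084242 to 27279102. Together the members took 0.627% to 0.846% of the counts, and both extremes were male cisplatin libraries. The level of a typical member was 19.1 CPM. Zfp106 (201 CPM), an RNA-binding protein needed by motor neurons, Zfp706 (160 CPM) and Zfp207 (150 CPM), whose human counterpart binds microtubules and Bub3, had the highest CPM. Per kilobase of exon the order changed to Zfp869 (40.3 CPM per kilobase), Zfp706 (32) and Zfp692 (31.4). None of the 10 members with the highest CPM passed the test in males or in females.

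Libraries of the male cisplatin group differed among themselves. The median over members of the log2 difference from the mean of the same-sex saline libraries was -0.279 in male cisplatin 5 and 0.122 in male cisplatin 6, with -0.034, -0.053, -0.099 and 0.05 in male cisplatin 1 to 4. In male saline it ran from -0.04 to 0.09, in female cisplatin from -0.13 to 0.126 and in female saline from -0.076 to 0.133. Lcn2, a secreted marker of tubule injury, was at 213 to 6589 CPM in male cisplatin, with the lowest value in male cisplatin 6, against 57.8 to 67.3 CPM in male saline; it was at 111 to 3529 CPM in female cisplatin, against 49.4 to 129 CPM in female saline. The share of counts on ribosomal protein genes was 6.3% in male cisplatin 5, 2.6% to 3.61% in the other male cisplatin libraries and 2.39% to 2.53% in male saline. The part of these differences in the results was not tested.

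**Figure D1:**
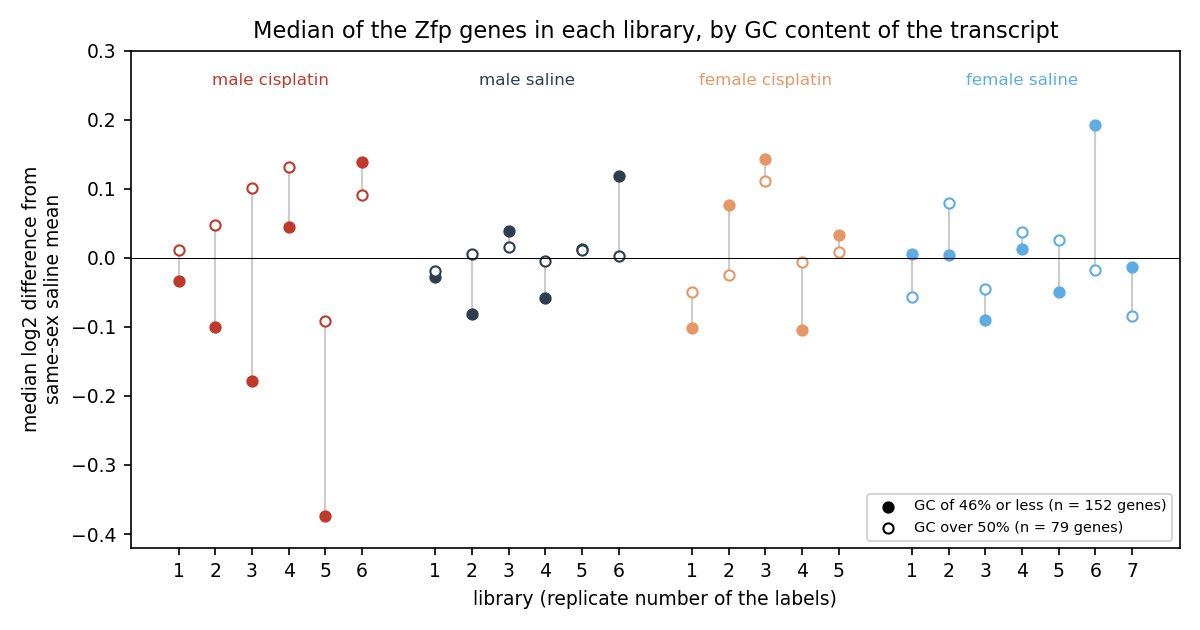
Median over Zfp genes of the log2 difference (CPM with a pseudocount of 1) of each library from the mean of the same-sex saline libraries (vertical axis), for 152 members with transcript GC of 46% or less (filled) and 79 with GC over 50% (open); the horizontal axis gives the libraries by group and replicate number. Male cisplatin 5 lies lowest on both, and the filled and open points lie apart most widely in male cisplatin 3 and 5 and in female saline 6.

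With all 24 libraries in the fit, few Zfp genes passed in males, and most changes were small. At an adjusted p under 0.05, 36 of 270 members (13.3%) passed, 20 higher and 16 lower, where 20.7% of all genes tested passed (13.2% higher and 7.54% lower) and 24.2% of the genes at or above 5 CPM. In this fit the share of Zfp genes was below both backgrounds, and this difference in shares was not tested. The median log2 fold change was -0.05 over the members and 0.02 over all genes, and its median size 0.19 over the members against 0.28 over all genes and 0.22 over genes at or above 5 CPM. Among those that passed, Zfp185 alone changed by at least 2-fold, where 1149 of all genes tested (6.38%) passed with such a change. A log2 fold change beyond 0.5 in size was found for 7.78% of members, 28% of all genes and 19% of genes at or above 5 CPM. The counts depended on single libraries: higher calls numbered 29 without male cisplatin 6, 11 without male cisplatin 3, 12 without male saline 1 and 13 without male saline 4. Shares of all genes with single libraries left out are not given here, so these counts cannot be set against the 20.7%. Lower calls numbered 38 without male cisplatin 6, and 10 without male cisplatin 1, 6 without male cisplatin 2, 5 without male cisplatin 3 and 8 without male cisplatin 5; without male saline 1, 3, 4, 5 or 6 they numbered 9, 10, 7, 10 and 7. Scaled by total counts alone, the split was 12 higher and 15 lower, and the share of all genes under that scaling is not given here either.

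**Figure D2:**
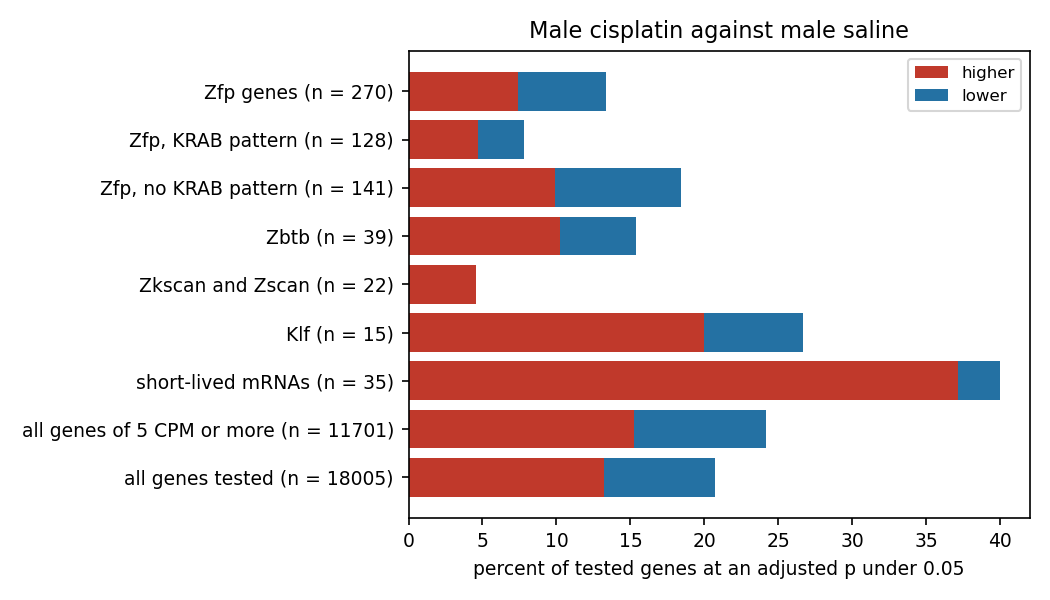
Percent of tested genes at an adjusted p under 0.05 in male cisplatin against male saline (horizontal axis), split into higher and lower, for the Zfp genes, their classes, other zinc finger families, a list of short-lived messages and all genes. The bar of the Zfp genes reaches 13.3%, and that of all genes tested 20.7%.

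Zfp185, on chromosome X, encodes a LIM-domain protein of the actin cytoskeleton in which 0 C2H2 fingers were found, so it shares the name of the family but not its fold. It had 46.5, 77.1 and 141 CPM (lowest, median and highest) in male cisplatin and 33.8, 37.7 and 48.1 CPM in male saline, a log2 fold change of 1.07 ± 0.24 (SE; edgeR quasi-likelihood test, adjusted p = 0.00434). The groups overlapped, since male cisplatin 6 lay below male saline 3. In female cisplatin it had 48.8, 37.8, 50.1, 82 and 97.6 CPM, against 31.3, 39 and 55.3 CPM (lowest, median and highest) in female saline. The female log2 fold change was 0.65 ± 0.23 with an edgeR adjusted p of 0.233, and only female cisplatin 4 and 5 lay above every saline library.

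Zfp1, a KRAB gene with 8 fingers on chromosome 8, had the lowest adjusted p of the members in males. Its level was 20, 27 and 33.1 CPM in male cisplatin and 15.5, 16.5 and 18.1 CPM in male saline, and the groups did not overlap. The log2 fold change was 0.74 ± 0.12 (edgeR adjusted p = 0.000494). Female cisplatin libraries had 18, 17.4, 20.4, 23 and 28.7 CPM, against 15.5, 16.5 and 18.2 CPM in female saline, with 0.37 ± 0.12 (edgeR adjusted p = 0.178). Male cisplatin and female cisplatin differed by 0.37 ± 0.12 (male minus female), which did not pass over all genes (edgeR adjusted p = 0.332).

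Zfp697, described in mouse muscle as an RNA-binding regulator of inflammatory remodelling, lies on chromosome 3. It had 18.2, 25 and 29.6 CPM in male cisplatin and 14.6, 15.6 and 17.5 CPM in male saline, again without overlap (log2 fold change 0.63 ± 0.13, edgeR adjusted p = 0.00285). In female cisplatin the values were 15.3, 18.5, 19, 22.3 and 27.7 CPM, against 15.4, 16.3 and 19.8 CPM in female saline, and these groups overlapped (0.28 ± 0.13, adjusted p = 0.318).

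Zfp653, on chromosome 9, averaged 19.8 ± 5.43 CPM in male cisplatin and 11.7 ± 0.847 CPM in male saline (SD, n = 6 each; log2 fold change 0.76 ± 0.16, edgeR adjusted p = 0.00372). Zfp467, a regulator of the choice between fat and bone cells in mouse marrow, averaged 79.8 ± 20.6 CPM in male cisplatin and 50.9 ± 3.6 CPM in male saline (0.65 ± 0.18, edgeR adjusted p = 0.0165). Zfp458, a KRAB gene with 20 fingers on chromosome 13, averaged 23.1 ± 5.08 CPM and 14.5 ± 3.6 CPM in the same groups (0.67 ± 0.19, edgeR adjusted p = 0.0164). For all 3 the lowest male cisplatin value was that of male cisplatin 6, and it lay within the range of male saline for Zfp653 and Zfp458 and below that range for Zfp467. These 3 genes, with Zfp185, Zfp1 and Zfp697, passed in males under every alternative that was run.

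Zfp202, whose human counterpart represses genes of lipid metabolism, and Zfp524 also rose in males, less firmly. Zfp202 averaged 13.5 ± 2.72 CPM in male cisplatin and 9.24 ± 1.14 CPM in male saline (SD, n = 6 each; log2 fold change 0.54 ± 0.16, edgeR adjusted p = 0.0221). It missed the threshold without male cisplatin 3 or male saline 1 (edgeR adjusted p 0.0518 to 0.0602). Zfp524 was at 4.58, 5.7 and 14 CPM in male cisplatin and 3.14, 4.14 and 6.4 CPM in male saline, where the value of 14 CPM is that of male cisplatin 5 alone. Its log2 fold change was 0.69 ± 0.23 (edgeR adjusted p = 0.0378), and it was lost without male cisplatin 3 or 5 or any of male saline 1 to 5 (edgeR adjusted p 0.0604 to 0.162).

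Among the genes that fell in males, Zfp326 had the lowest adjusted p. It lies on chromosome 5, and its human counterpart belongs to a complex that couples transcript elongation to splicing. It had 25, 29.3 and 53.5 CPM in male cisplatin and 53, 61 and 65.1 CPM in male saline (log2 fold change -0.82 ± 0.16, edgeR adjusted p = 0.0022). Of the male cisplatin libraries, only male cisplatin 6 reached the range of male saline. Female cisplatin libraries had 41.8, 51, 48.8, 25.7 and 35.8 CPM, against 43.7, 53.7 and 58.7 CPM in female saline (-0.38 ± 0.17, edgeR adjusted p = 0.294), and there again the lowest were female cisplatin 4 and 5.

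Zfp366, a nuclear receptor corepressor known as a marker of dendritic cells, lies on chromosome 13. It had 6.69, 10.2 and 14.4 CPM in male cisplatin and 16.3, 17.4 and 18.6 CPM in male saline, and the groups did not overlap (log2 fold change -0.71 ± 0.19, edgeR adjusted p = 0.0109). In female cisplatin it had 16.1, 16.7, 22.2, 9.78 and 11.2 CPM, against 15, 19.4 and 25.3 CPM in female saline (-0.35 ± 0.19, adjusted p = 0.389). Zfp438, on chromosome 18, averaged 9.47 ± 1.97 CPM in male cisplatin and 13.7 ± 1.57 CPM in male saline (SD, n = 6 each; -0.53 ± 0.14, edgeR adjusted p = 0.0141). Zfp326, Zfp366 and Zfp438 passed in males under every alternative that was run.

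Markers of other cell types moved in the same libraries. All 5 erythroid markers fell in males, with sums of 4.67 to 15.3 CPM in male cisplatin and 149 to 380 CPM in male saline. In males 5 of 8 endothelial markers fell, and their sum was 842 to 2821 CPM in male cisplatin and 2342 to 2825 CPM in male saline. Of 8 fibroblast markers 6 fell, with sums of 121 to 485 CPM in male cisplatin and 559 to 726 CPM in male saline. Of 9 tested macrophage and monocyte markers 2 rose (Cd14 and Cd68) and 1 fell (Adgre1), with sums of 130 to 246 CPM in male cisplatin and 95 to 190 CPM in male saline. Cd14 averaged 101 CPM in male cisplatin and 22.1 CPM in male saline, so it weighs on the sum. The median log2 fold change of the 9 was -0.42. Of 8 intercalated cell markers 3 fell, of 4 tested thin limb markers 1 rose (Cldn4), and of 5 urothelial markers 2 rose. Of 16 proximal tubule markers edgeR called 0 in males, with 2 at an unadjusted p under 0.05. Yet the male log2 fold changes of the 16 ran from -1.32 to 0, with a median of -0.5, and the female median was -0.46. The proximal tubule sums were 97.6 to 1201 CPM in male cisplatin and 216 to 1228 CPM in male saline. Of 6 thick ascending limb markers 1 fell (Egf). Their sums were 2034 to 8434 CPM in male cisplatin and 2779 to 14118 CPM in male saline. In female saline these sums ran from 1179 to 12266 CPM, and in female cisplatin from 4070 to 9689 CPM. Markers of collecting duct principal cells, which define this tissue, were present at sums of 5398 to 10539 CPM in male cisplatin and 8443 to 10052 CPM in male saline, and of the 10 Scnn1b rose and Aqp3 and Aqp4 fell. The part of these cell types in the Zfp results was not tested.

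The calls of the other named falls in males lay nearer the threshold. Zfp931, a KRAB gene with 7 fingers on chromosome 2, had 8.77, 11.8 and 27.4 CPM in male cisplatin and 20.9, 24.6 and 33.7 CPM in male saline (log2 fold change -0.83 ± 0.28, edgeR adjusted p = 0.0351). It was lost without male cisplatin 1, 2, 3 or 5 or male saline 1, 3, 4 or 6 (edgeR adjusted p 0.0531 to 0.0813). Zfp189, linked to stress resilience in mouse cortex, had 4.63, 5.62 and 6.13 CPM in male cisplatin and 6.66, 8.03 and 9.49 CPM in male saline, without overlap (-0.52 ± 0.16, edgeR adjusted p = 0.0278). It was lost without male cisplatin 1 or 2 or male saline 4 (edgeR adjusted p 0.0501 to 0.0665). Zfp236 averaged 48.1 ± 9.91 CPM in male cisplatin and 63.8 ± 5.24 CPM in male saline (SD, n = 6 each; -0.41 ± 0.13, edgeR adjusted p = 0.0291) and was lost without male cisplatin 3 or 5 or male saline 3 or 6 (edgeR adjusted p 0.0529 to 0.075).

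Zfp667 averaged 8.18 ± 1.7 CPM in male cisplatin and 11 ± 1.21 CPM in male saline (SD, n = 6 each; log2 fold change -0.43 ± 0.15, edgeR adjusted p = 0.0423). It was lost without male cisplatin 1, 2 or 3 or any male saline library (edgeR adjusted p 0.0518 to 0.0987). Zfp882 averaged 5.19 ± 2.68 CPM in male cisplatin and 8.65 ± 1.23 CPM in male saline (-0.72 ± 0.25, edgeR adjusted p = 0.0441). It was lost without male cisplatin 1, 2, 3 or 5, male saline 1, 3, 4, 5 or 6, or female saline 3 or 7 (edgeR adjusted p 0.0507 to 0.103). With a covariate of tubule markers the adjusted p of 7 of these genes ran from 0.0502 to 0.103 (edgeR), while the log2 fold changes were close to those above for Zfp524 (0.73), Zfp236 (-0.42) and Zfp882 (-0.72) and smaller for Zfp202 (0.44), Zfp931 (-0.71), Zfp189 (-0.42) and Zfp667 (-0.38). Without male cisplatin 5, female saline 1 and female saline 6 together, the log2 fold change of Zfp524 was 0.38 (edgeR adjusted p = 0.132), that of Zfp882 -0.58 (edgeR adjusted p = 0.0977) and that of Zfp236 -0.33 (edgeR adjusted p = 0.0703). Without the same libraries Zfp931 stayed at -0.82 (edgeR adjusted p = 0.0548) and Zfp189 at -0.52 (edgeR adjusted p = 0.0506).

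**Figure D3:**
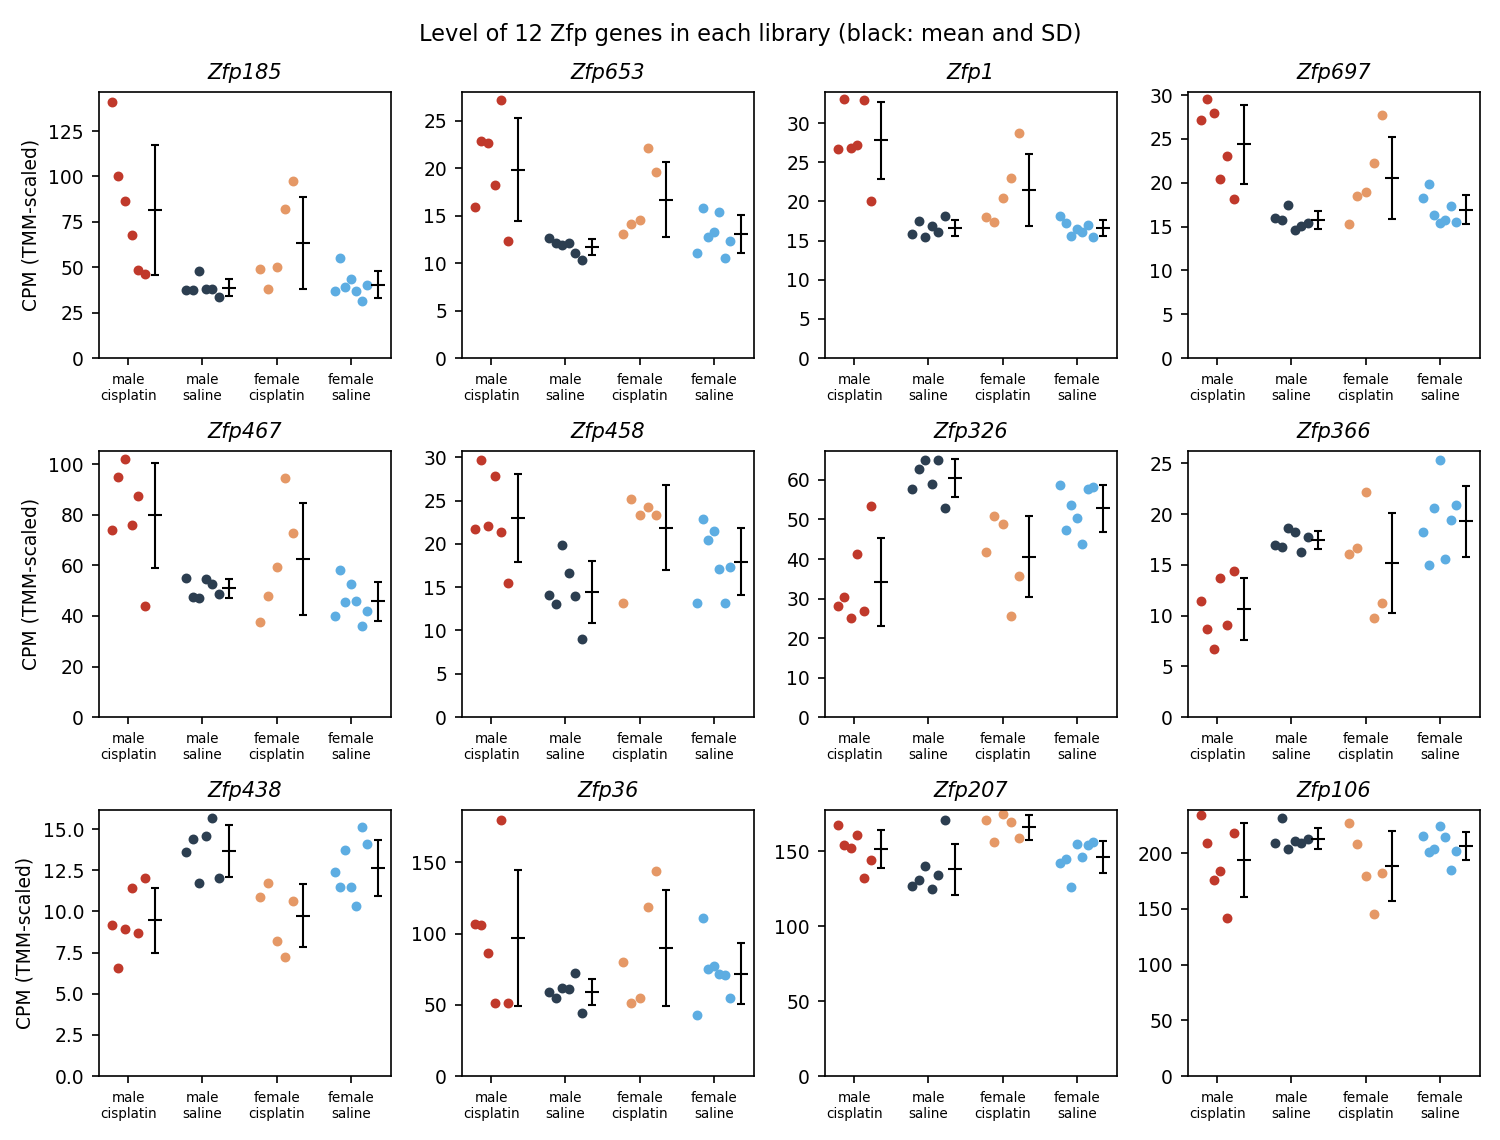
Level of 12 Zfp genes in each library (vertical axis, CPM with TMM-scaled library sizes, from 0), by group (horizontal axis); points are libraries in the order of their replicate numbers and black marks give the mean and SD. Zfp1 and Zfp697 are higher and Zfp366 lower in every male cisplatin library than in any male saline library, while Zfp106, with the highest CPM, overlaps between the groups of both sexes.

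The promoters of 4 of these genes, 2 that rose and 2 that fell in males, show how unlike in base composition the sequences upstream of the members are. Each is 250 bases long, read on the gene's strand from RefSeq on build GRCm38.p6, with capitals for GGGCGG (the GC box of SP and KLF factors), CCAAT (NF-Y) or ACTACAA (a core of the site of ZFP143, itself a product of this family), on either strand.
Zfp1, chr8:111643193-111643442, plus strand: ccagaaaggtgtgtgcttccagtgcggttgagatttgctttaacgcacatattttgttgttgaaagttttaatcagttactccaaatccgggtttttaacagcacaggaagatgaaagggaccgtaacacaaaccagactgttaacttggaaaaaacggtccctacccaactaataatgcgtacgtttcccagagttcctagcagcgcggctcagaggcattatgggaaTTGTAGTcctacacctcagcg
Zfp185, chrX:72987089-72987338, plus strand: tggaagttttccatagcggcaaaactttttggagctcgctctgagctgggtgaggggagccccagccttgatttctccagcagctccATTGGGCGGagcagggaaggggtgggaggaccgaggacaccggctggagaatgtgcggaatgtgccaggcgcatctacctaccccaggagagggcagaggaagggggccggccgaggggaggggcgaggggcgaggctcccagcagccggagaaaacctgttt
Zfp326, chr5:105876318-105876567, plus strand: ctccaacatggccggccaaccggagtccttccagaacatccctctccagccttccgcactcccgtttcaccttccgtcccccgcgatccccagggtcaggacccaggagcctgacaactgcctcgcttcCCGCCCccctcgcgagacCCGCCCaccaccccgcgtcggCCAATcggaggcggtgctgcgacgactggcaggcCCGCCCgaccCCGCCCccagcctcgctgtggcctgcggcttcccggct
Zfp931, chr2:178078426-178078675, minus strand: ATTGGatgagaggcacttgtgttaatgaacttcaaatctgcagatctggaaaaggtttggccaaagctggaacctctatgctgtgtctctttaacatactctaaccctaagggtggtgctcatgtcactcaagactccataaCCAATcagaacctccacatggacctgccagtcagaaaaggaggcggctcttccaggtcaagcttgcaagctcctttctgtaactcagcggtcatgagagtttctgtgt

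The Zfp1 window holds 1 ZFP143 core and 44.8% GC, the Zfp185 window a GC box that overlaps a CCAAT box at 63.2% GC. The Zfp326 window holds 4 GC boxes and 1 CCAAT box at 71.6% GC, and the Zfp931 window 2 CCAAT boxes at 46.8% GC. A promoter window was found for 226 members. A gene held a motif if any of its windows did. GGGCGG was held by 45.1% of these members and by 35.4% of all 27025 genes with a window. CCAAT was held by 50.9% and 37.5%, and ACTACAA by 7.52% and 3.27%. TGACGTCA, the cAMP response element, was held by 3.54% of these members and 1.77% of all genes, and the E-box CACGTG by 7.08% and 6.86%. These shares count genes, both strands were searched, and the differences were not tested. All genes with a window were taken whether expressed or not, while the members had been chosen for their expression, so the backgrounds are unlike. GGGCGG was held by 9 of the 18 members with a window that rose in males and by 6 of the 12 that fell.

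In females, edgeR called 0 of the 270 members, where it called 0.272% of all genes tested. An unadjusted p under 0.05 was found for 23 of the 270 members and for 2664 of the 18005 genes tested. DESeq2 called 1 member higher, where it called 0.786% of all genes higher, and 1 lower, where it called 0.419% lower. The median log2 fold change was 0 over members and 0.01 over all genes. These were Zfp961 and Zfp46, which also lay nearest the threshold with edgeR. Zfp46, a KRAB gene with 12 fingers on chromosome 4, had 60.7, 36.4, 28.1, 32.9 and 52 CPM in female cisplatin, against 51.6, 66.8 and 91 CPM in female saline. Its log2 fold change was -0.72 ± 0.18 (edgeR adjusted p = 0.0975; DESeq2 adjusted p = 0.0212). Zfp961, a KRAB gene with 11 fingers on chromosome 8, had 22.7, 25.7, 29.5, 28.8 and 35.1 CPM in female cisplatin, against 15.6, 19.4 and 24.6 CPM in female saline (0.54 ± 0.14, edgeR adjusted p = 0.0985; DESeq2 adjusted p = 0.0324). For both, the groups overlapped, and in males the log2 fold changes were -0.38 ± 0.18 for Zfp46 and 0.09 ± 0.14 for Zfp961, neither past the threshold.

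The lack of calls in females does not show that the sexes differed. The difference between the male and the female cisplatin effect was called for 0 of 18005 genes by edgeR (0%), so for no member. An unadjusted p under 0.05 was found for 7 of 270 members and for 772 of 18005 genes. The smallest edgeR adjusted p of a member was 0.943, and DESeq2 called 0 members. Of the 36 members called in males, 35 had a female log2 fold change of the same sign. The same share over all genes called in males is not given here, so this count does not set the Zfp genes apart. Between the sexes, edgeR called 0 members under saline, where 0.189% of all genes passed, and 0 members under cisplatin, where 0.156% passed. At an unadjusted p under 0.05 there were 7 of 270 members under saline, against 580 of 18005 genes. Under cisplatin there were 12 of 270 members, against 1750 of 18005 genes. DESeq2 called 0 members in both contrasts between the sexes.

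**Figure D4:**
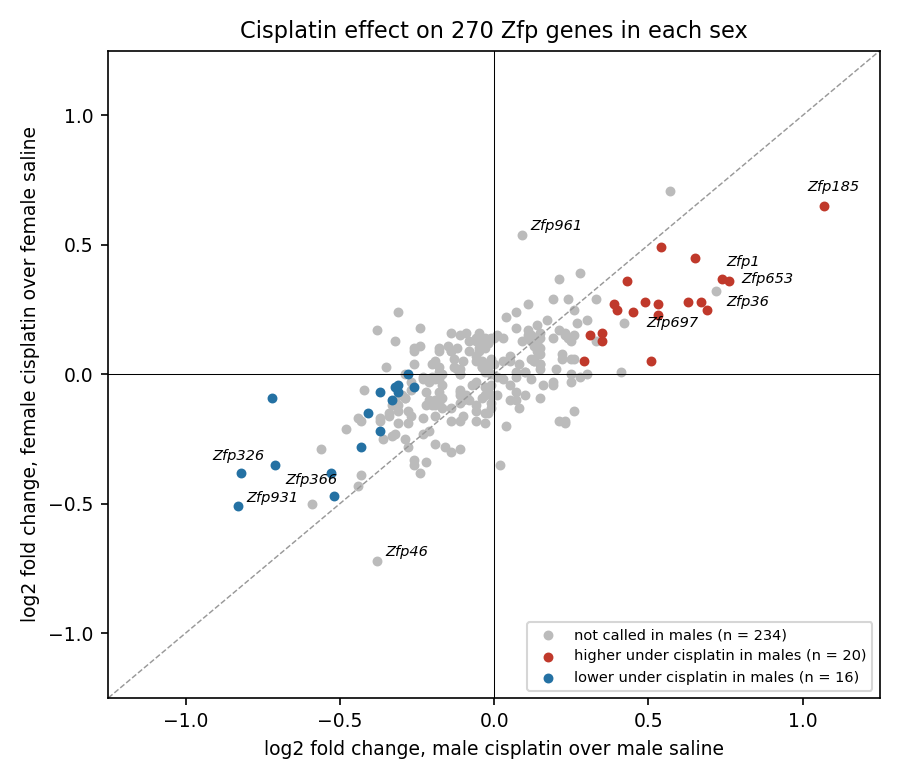
Log2 fold change of cisplatin over saline for the 270 Zfp genes in males (horizontal axis) and in females (vertical axis), with the calls in males in colour; the dashed line marks equal change. Zfp185 lies at 1.07 in males and 0.65 in females, and Zfp961 and Zfp46 lie farther from 0 in females than in males.

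With the male and the female effect averaged, 42 members (15.6%) passed, 29 higher and 13 lower, where 27.1% of all genes passed (16.2% higher and 10.9% lower) and 30.9% of the genes at or above 5 CPM. Of these 42, 28 also passed in males and 14 did not, and 8 passed in males only. Zfp939, on chromosome 7, averaged 8.52 ± 3.2 CPM in male cisplatin (n = 6) and 5.73 ± 0.623 CPM in male saline (n = 6), and 8.19 ± 2.95 CPM in female cisplatin (n = 5) and 5.01 ± 0.801 CPM in female saline (SD, n = 7). Its mean log2 fold change was 0.64 ± 0.16 (edgeR adjusted p = 0.00586), and 0.42 with the tubule covariate (edgeR adjusted p = 0.0601). Zfp46 fell by 0.55 ± 0.13 on the log2 scale (edgeR adjusted p = 0.00359). Higher calls numbered 18 without female cisplatin 4, and lower calls 38 without male cisplatin 6, 21 without female cisplatin 1 and 23 without female cisplatin 3. Scaled by total counts alone, the split was 20 higher and 24 lower, and with DESeq2 30 higher and 27 lower. Shares of all genes under these alternatives are not given here, so these counts cannot be set against the 27.1%.

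Among 14 members with known roles in RNA, ribosome or ubiquitin biology, 1 rose (Zfp697) and 2 fell (Zfp326 and Zfp638) in males, a share of 21.4% that is near the 20.7% of all genes. Zfp638, which in human cells recruits a silencing complex to retroviral DNA, averaged 74.8 ± 11.1 CPM in male cisplatin and 93.2 ± 9.15 CPM in male saline (SD, n = 6 each; log2 fold change -0.32 ± 0.1, edgeR adjusted p = 0.0253). It was lost without male cisplatin 2 or 3 or male saline 6 (edgeR adjusted p 0.0546 to 0.0671), and with no filter or each sex alone (edgeR adjusted p 0.0588 to 0.0609). Zfp36 encodes tristetraprolin, which binds AU-rich messages and drives their decay, and its own message is short-lived. It had 51.2, 96.1 and 180 CPM in male cisplatin and 44.2, 60 and 72.2 CPM in male saline, a log2 fold change of 0.72 ± 0.28 that did not pass (edgeR adjusted p = 0.0677). Female cisplatin libraries had 80.2, 51.1, 54.6, 119 and 144 CPM, against 42.7, 71.8 and 111 CPM in female saline (0.32 ± 0.28, edgeR adjusted p = 0.608). The highest values were those of male cisplatin 5 and female cisplatin 4 and 5, the libraries with the highest shares of ribosomal protein counts (6.3%, 4.28% and 3.91%).

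Zfp598, the ubiquitin ligase that marks collided ribosomes, had a male log2 fold change of 0.26 ± 0.14 (edgeR adjusted p = 0.191), Zfp91, a ubiquitin ligase of the NF-kB pathway, 0.09 ± 0.08 (edgeR adjusted p = 0.439), and Zfp451, a SUMO ligase, -0.06 ± 0.12 (edgeR adjusted p = 0.725). Zfp598 passed in 2 of 33 alternatives in males and 5 of 32 for the mean of both sexes. Without male cisplatin 5, female saline 1 and female saline 6 together, its male change was 0.37 (edgeR adjusted p = 0.0322). Its mean change was then 0.34 (edgeR adjusted p = 0.00644). Zfp207 passed as the mean of both sexes, and in males only with offsets fitted to GC (0.24, edgeR adjusted p = 0.0231). It averaged 152 ± 12.9 CPM in male cisplatin and 138 ± 16.8 CPM in male saline (SD, n = 6 each), and 166 ± 8.35 CPM in female cisplatin (n = 5) and 146 ± 10.3 CPM in female saline (SD, n = 7), with a mean log2 fold change of 0.16 ± 0.06 (edgeR adjusted p = 0.0361). In females the groups did not overlap, while in males they did. That call was lost without any of male cisplatin 1, 2 or 4, male saline 1 to 5, female cisplatin 1, 3 or 4, or female saline 1 or 3 (edgeR adjusted p 0.0502 to 0.0664). It was also lost with total-count scaling, no filter and the tubule covariate (edgeR adjusted p 0.0864 to 0.185).

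Of 32 members known as transcription factors or chromatin regulators without a KRAB box, 0 rose and 2 fell in males, Zfp148 and Zfp422 (6.25%, against 20.7% of all genes), and the median log2 fold change of the 32 was -0.17, against 0.02 over all genes. Zfp148, which binds GC-rich promoters, averaged 59.8 ± 10.7 CPM in male cisplatin and 75.4 ± 3.24 CPM in male saline (SD, n = 6 each; log2 fold change -0.33 ± 0.1, edgeR adjusted p = 0.0224), and was lost without male cisplatin 2 or 3 (edgeR adjusted p 0.053 to 0.0567). Zfp422 had -0.26 ± 0.09 (edgeR adjusted p = 0.0391) and was lost without male cisplatin 1, 2, 3 or 5 or male saline 1, 3, 4, 5 or 6 (edgeR adjusted p 0.0521 to 0.081). Both Zfp148 and Zfp422 were also lost with no filter and with each sex alone (edgeR adjusted p 0.0536 to 0.118). Zfp281, a close relative of Zfp148 and a regulator of pluripotency, passed as the mean of both sexes (-0.29 ± 0.09, edgeR adjusted p = 0.0147). Zfp143, a factor that binds promoters directly, had -0.24 ± 0.13 in males (edgeR adjusted p = 0.196).

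Among 10 KRAB genes with known targets, edgeR called 0 in males, where 20.7% of all genes passed. At an unadjusted p under 0.05 there was 1 of the 10, against 6483 of 18005 genes. As the mean of both sexes 2 passed (20%, against 27.1% of all genes). The list is short, and the differences in shares were not tested. Zfp57 and Zfp445, which keep methylation at imprinted regions, had male log2 fold changes of 0.13 ± 0.18 (edgeR adjusted p = 0.623) and -0.23 ± 0.15 (edgeR adjusted p = 0.258). Zfp568, a repressor of Igf2 in the mouse embryo, had -0.14 ± 0.15 (edgeR adjusted p = 0.506). Zfp809, which silences murine leukaemia virus, and Zfp961 passed as the mean of both sexes, at 0.25 ± 0.08 (edgeR adjusted p = 0.0271) and 0.31 ± 0.1 (edgeR adjusted p = 0.0206). Zfp809 was lost without female cisplatin 4 or 5 (edgeR adjusted p 0.0537 to 0.0596), and Zfp961 without female cisplatin 5 (edgeR adjusted p = 0.0544). With the tubule covariate both were lost, Zfp809 at 0.17 (edgeR adjusted p = 0.154) and Zfp961 at 0.23 (edgeR adjusted p = 0.105). With no filter both were lost too (edgeR adjusted p 0.0848 and 0.0552), and Zfp809 also with the replicate block (edgeR adjusted p = 0.056).

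Over all 128 members with the KRAB pattern, 10 (7.81%) passed in males, 6 higher and 4 lower, and over the 141 without it 26 (18.4%), 14 higher and 12 lower; the difference in shares was not tested. As the mean of both sexes the shares were 14.1% with the pattern and 16.3% without. The classes differ in GC content of the transcript: 68 of 97 members under 42% GC had the pattern, and 2 of 42 over 54%. Of all genes, 6.68% rose and 9.96% fell in males under 42% GC, and 19.6% rose and 3.91% fell over 54%. The part of GC content in the shares of the classes was not tested. Of 27 partners of KRAB proteins outside the family, 4 rose in males (Resf1, Daxx, Uhrf1 and Ehmt2) and 1 fell (Mphosph8, a reader of the HUSH complex, -0.42 ± 0.11, edgeR adjusted p = 0.0141), a share of 18.5% that is near the 20.7% of all genes. Trim28, the corepressor that KRAB boxes recruit, had -0.01 ± 0.09 (edgeR adjusted p = 0.943). By finger number, members with 6 to 10 fingers gave 7 higher and 2 lower calls of 76 in males, and those with 11 to 15 gave 2 higher and 6 lower calls of 90. Those with 0 fingers gave 1 higher and 0 lower of 6, those with 1 to 5 gave 8 and 6 of 50, and those with 16 or more 2 and 2 of 47. Of all genes 13.2% were higher and 7.54% lower. Neither a trend with finger number nor the part of GC content in it was tested.

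Zfp genes are a source of short-lived messages, and others were read in the same libraries. Of 35 such messages of other families, 13 rose and 1 fell in males (40% called, against 20.7% of all genes), and their median log2 fold change was 0.44, against 0.02 over all genes. They included Socs3, a feedback inhibitor of cytokine signalling (3.61 ± 0.5, edgeR adjusted p = 0.000103), and Fos, an immediate early factor (2.57 ± 0.75, edgeR adjusted p = 0.0201). Of 26 genes of deadenylation and decay, 3 rose and 0 fell (11.5%). Other zinc finger families had 4 higher and 2 lower of 39 (Zbtb, 15.4%), 1 higher and 0 lower of 22 (Zkscan and Zscan, 4.55%), and 3 higher and 1 lower of 15 (Klf, 26.7%).

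Calls in opposite directions differed in the GC content of the transcript. Members that rose in males had a median GC of 51.52% (n = 20) in their longest transcript, those that fell 42.25% (n = 16), and those not called 44.67% (n = 234). Of 42 members with GC over 54%, 8 rose and 0 fell, with a median log2 fold change of 0.15; of all genes of that GC 19.6% rose and 3.91% fell, with a median of 0.14, so the members' share of higher calls was near that of all genes. Of 97 members under 42%, 3 rose and 8 fell, with a median of -0.11; of all genes of that GC 6.68% rose and 9.96% fell, with a median of -0.09. From 46% to 50% the medians were -0.14 for the members and -0.02 for all genes. With offsets per library fitted to GC, an alternative chosen after seeing the data, 24 members rose and 8 fell in males. The share of all genes with these offsets is not given here. In females the median of members over 54% GC was 0.07, against 0.05 for all genes of that GC, and under 42% it was 0.03, against 0.

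**Figure D5:**
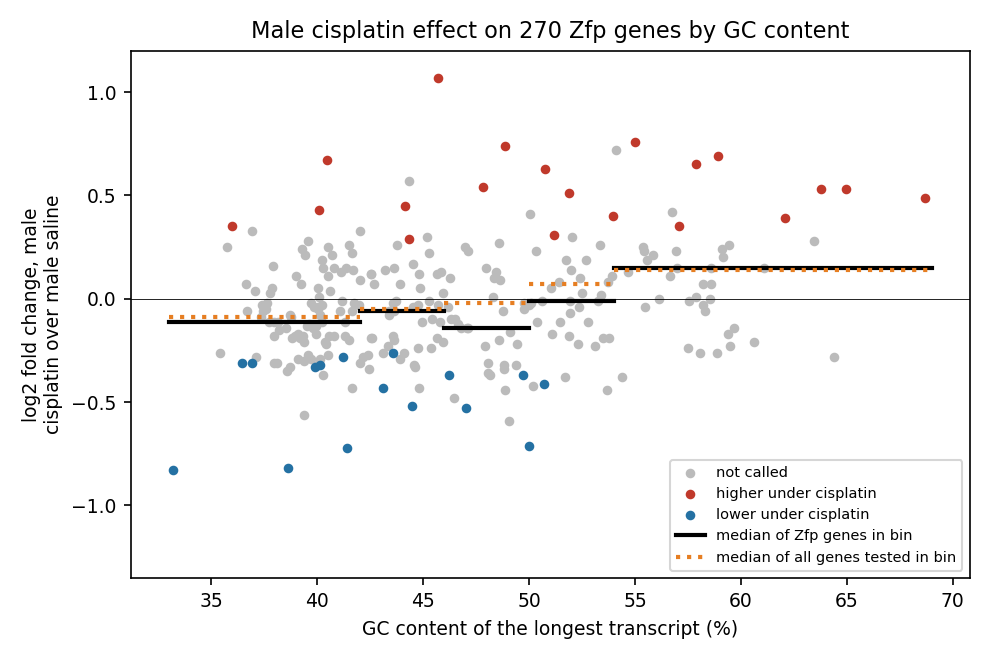
Male log2 fold change of the 270 Zfp genes (vertical axis) against the GC content of the longest transcript in percent (horizontal axis), with calls in colour, black bars for the members' median and dotted bars for the median of all genes tested in each GC bin. The black bars run from -0.11 under 42% to 0.15 over 54% and lie close to the dotted ones except from 46% to 54%.

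By position, chromosome 7 held 69 members and chromosome 17 held 38. In 19 runs of 3 or more neighbours, each at most 250000 bases from the next, lay 119 members. A run of 5 on chromosome 7 (Zfp628, Zfp579, Zfp524, Zfp865 and Zfp580), singled out after its values were seen, had 3 genes that rose in males and a median log2 fold change of 0.53. Of these, Zfp579 averaged 47.5 ± 10.4 CPM in male cisplatin and 32.9 ± 2.71 CPM in male saline (SD, n = 6 each; 0.53 ± 0.14, edgeR adjusted p = 0.0105), and Zfp580 11.1 ± 2.28 CPM and 7.67 ± 0.808 CPM in the same groups (0.53 ± 0.13, edgeR adjusted p = 0.0092). Their transcripts are rich in GC, at 63.76% for Zfp579 and 64.96% for Zfp580. Zfp524, the other gene of the run that rose, was lost with GC offsets (0.53, edgeR adjusted p = 0.0778). It was also lost with total-count scaling, no filter and each sex alone (edgeR adjusted p 0.0526 to 0.098). Of a run of 16 KRAB genes on chromosome 17, edgeR called 0 in males, where 20.7% of all genes passed. The log2 fold changes of the 16 ran from -0.31 to 0.33, and the difference in shares was not tested.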

How the data were processed

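The authors deposited whole-number counts per gene and library. Per the submitters' processing notes, the tools were Trim Galore 0.6.7, Subread 2.0.1 with featureCounts and DESeq2 1.28.1, on build mm10. Annotation release and strandedness of the counting were not stated there. The counts went into edgeR 4.0.16 under R 4.3.3 (filterByExpr with a minimum count of 10, TMM scaling, quasi-likelihood fit with a mean per group over 24 libraries, Benjamini-Hochberg adjustment over 18005 genes, threshold 0.05). Levels are CPM over library sizes scaled by TMM. Symbols were found for 52083 of 55416 identifiers. Chromosomes, exon lengths, GC content and reading frames came from GENCODE M21; fingers and KRAB boxes were searched in translated reading frames, in place of the RefSeq proteins planned.

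The members and lists were chosen with earlier results of these data known. Named were the 10 members with the highest CPM; the 8 highest and 8 lowest changes among those past the threshold in each treatment contrast; up to 5 in each contrast between the sexes; members of the lists of known roles; and the 3 genes on either side of 5 CPM. Alternatives were RLE and total-count scaling, no filter, DESeq2 1.42.0, each sex alone, a covariate of tubule markers, a replicate block, leaving out each library, leaving out 3 libraries that stood apart, and GC offsets.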

Additional observations from a re-analysis of the deposited data

Results flagged for a closer look

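In 6 of 84 groups of named members tested, 1 library lay far from the others of its group; chance flags about 1 group in 20. Zfp524 was at 14 CPM in male cisplatin 5, where the next value was 7.08 CPM. Zfp46 was at 49.5 CPM in male cisplatin 6 and 38.6 CPM in the next library. Zfp458 was at 13.2 CPM in female cisplatin 1, below the next value of 23.3 CPM. In saline libraries, Zfp185 was at 48.1 CPM in male saline 3 (next 38.3 CPM), Zfp667 at 13.3 CPM in male saline 2 (next 11 CPM) and Zfp931 at 45.7 CPM in female saline 6 (next 28.6 CPM).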

How the results depend on the processing

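In males, higher calls numbered 12 with total-count scaling, 10 with no filter and 12 with each sex alone, against 20. Lower calls numbered 5 with no filter, 7 with each sex alone, 10 with the tubule covariate, 5 without male cisplatin 5, female saline 1 and female saline 6, and 8 with GC offsets, against 16. In females DESeq2 called 1 higher and 1 lower. As the mean of both sexes, higher calls numbered 15 with no filter, 17 with the tubule covariate and 19 with the replicate block, against 29; lower calls numbered 20 with RLE, 24 with total counts and 27 with DESeq2, against 13. Shares of all genes under these alternatives are not given here for males or for the mean. It is thus not known whether these shifts are particular to the Zfp genes. The cause was not tested. Leaving out 1 library gave 11 to 29 higher and 5 to 38 lower calls in males, 18 to 35 and 9 to 38 for the mean, and 0 to 1 lower in females (1 without female cisplatin 1). The other counts stayed at 0, and medians ran from -0.09 to -0.02 (males), -0.03 to 0.02 (females) and -0.04 to -0.01 (mean). Correlations of same-numbered libraries ran from -0.354 to 0.338 (median -0.004), so no pairing by number was seen. Low correlations cannot show that the numbers carry no pairing, since other differences among libraries can hide it. With the replicate block males had 17 higher and 15 lower calls. Of 41 passed tests of named members, 23 passed under every alternative and 0 changed sign. Of the tests that did not pass, 25 passed under at least 1 alternative. Some small changes that passed under no alternative did change sign. At 18084242 to 27279102 counts per library, the median SE of a member was 0.13 in males and 0.14 in females; what limits the number of calls was not tested.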

Other observations

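Of the 104 Zfp genes below 5 CPM, 63 were tested, and in males 0 were called higher and 3 lower by edgeR (4.76%, against 20.7% of all genes), with a median log2 fold change of -0.2. As the mean of both sexes, 1 was higher and 4 were lower (7.94%, against 27.1% of all genes). Of 30 tested genes of the related names with a letter after the number, Zfpm and Zfpl1, 0 rose and 1 fell in males (3.33%), and 0 rose and 6 fell as the mean of both sexes (20%). Among these, Zfp36l1, a relative of Zfp36 that also drives decay of AU-rich messages, had a mean log2 fold change of -0.31 ± 0.09 (edgeR adjusted p = 0.0122), opposite in sign to the 0.52 ± 0.2 of Zfp36 (edgeR adjusted p = 0.0525).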
